A study of Mus musculus with 4 samples.

Results

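In total, 10 genes of the Polycomb repressive complexes were followed across the 4 arrays of a study on Rb in murine embryonic fibroblasts (MEFs). They were chosen by name, as every probe whose gene symbol was Ezh1, Ezh2, Eed, Suz12, Bmi1, Ring1, Rnf2, Cbx2, Cbx7 or Cbx8. These 10 genes were represented by 15 of the 45281 probes on the Illumina mouse whole-genome BeadChip, and 8 of them were among the 12616 genes with a probe detected on at least 1 array. The study asked how MEFs transcribe their genes when Rb is lost and when it is replaced by a form that cyclin-dependent kinases cannot phosphorylate. All MEFs were of strain FVB;129 and, per the study's methods, came from embryos with both Rb alleles flanked by loxP sites, were contact arrested and released, and were then exposed to doxorubicin, which damages DNA.

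Parental MEFs received a solution without TAT-Cre and medium without virus, and kept their own Rb. Rb-deleted MEFs received TAT-Cre, a cell-permeable recombinase, in 2 treatments of 1 h that were 3 h apart, and medium without virus. WT Rb-HA MEFs received TAT-Cre and a retrovirus for wild-type Rb with an HA tag, given at the time of deletion. ΔCdk Rb-HA MEFs received TAT-Cre and a retrovirus for Rb without its Cdk phosphorylation sites. The 3 TAT-Cre-treated cultures therefore share the deletion of endogenous Rb, and the parental array differs from them in that treatment as well. No arm with TAT-Cre and an empty virus was among the arrays, so the effect of infection and that of the Rb it carried cannot be told apart. The labels do not say how many embryos each culture came from. Each condition was measured on 1 array, and all 4 arrays lay on 1 BeadChip, so array position and condition cannot be told apart. No p-value was therefore computed, and the error given with each value is the bead standard error, which covers the spread between the beads of a probe within an array and not that between cultures.

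Polycomb proteins keep developmental genes silent through enzymes that mark histones. Polycomb repressive complex 2 (PRC2) adds methyl groups to lysine 27 of histone H3 through Ezh1 or Ezh2, with Eed and Suz12 as its core partners, and PRC1 attaches ubiquitin to histone H2A through Ring1 or Rnf2, with Bmi1 as a partner and a Cbx protein that reads the methyl mark. In MEFs these complexes are best known for silencing the Cdkn2a locus, which encodes the cell cycle inhibitors p16Ink4a and p19Arf, and Ezh2 and Eed are known as E2F targets under the control of Rb.

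The arrays were alike in depth, with mean intensities of 336 to 346, 15950 to 16740 probes detected and a median of 44 beads behind a probe. The Rb1 probe at transcript position 4421 read 543 in parental, 160.5 in Rb-deleted, 181 in WT Rb-HA and 170.1 in ΔCdk Rb-HA MEFs, and that at position 4002 read 108, 56.7, 51.1 and 52.9. Both were lower on every TAT-Cre-treated array, but they lie toward the 3′ end of the transcript and the labels do not say which part was deleted or carried by the virus, so they show the level of that transcript and not the deletion itself. All 10 fibroblast markers on the list were detected on every array, with summed intensities of 58682 to 66542, while none of 4 endothelial markers was detected and 4 epithelial markers of 6 summed to no more than 364. Leukocyte markers were detected for 9 of 12 genes, Ptprc not among them, and summed to 9496 on the parental array against 4491 to 5466 on the others. All 9 were lower than parental on every TAT-Cre-treated array. Their part in the values below was not tested, and in bulk RNA fewer cells of a type and less RNA per cell cannot be told apart.

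Of the 8 detected Polycomb genes, Ezh2 was higher than in parental MEFs on all 3 TAT-Cre-treated arrays, each time past 1.6-fold (0.68 on the log2 scale), the filter the study applied. Cbx2 was past it against parental in Rb-deleted MEFs and in neither culture with exogenous Rb. Eed, Suz12, Ring1 and Rnf2 stayed within 1.6-fold in all 6 comparisons between the arrays. Bmi1 and Cbx8 stayed within it against parental MEFs and passed it when ΔCdk Rb-HA MEFs were set against another TAT-Cre-treated culture. In all, 4 genes gave 7 of the 48 differences past 1.6-fold, and only those of Ezh2 in Rb-deleted and in ΔCdk Rb-HA MEFs were also past it without background correction. Of all genes analysed, 0.484% to 3.30% were past 1.6-fold, depending on comparison and direction. The 6 comparisons share 4 arrays, so the 48 differences are not independent.

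Ezh2, the methyltransferase of PRC2 in proliferating cells, has 3 probes on chromosome 6, and its values rest on the one at transcript position 408. The probe at 2322 read 41 to 46.5 and the one at 2568 read 32.1 to 38.4, and neither was detected on any array. The sequences of the probes at 408 and 2322, 5′ to 3′, are shown because they belong to the same gene and only the first gave a signal.
Ezh2 probe 408, detected on all arrays: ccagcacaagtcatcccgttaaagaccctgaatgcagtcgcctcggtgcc
Ezh2 probe 2322, detected on none: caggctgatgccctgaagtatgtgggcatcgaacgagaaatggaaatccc

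The intensity of the Ezh2 probe at position 408 was 122 (bead standard error 6.73) in parental, 225 (7.51) in Rb-deleted, 186 (6.75) in WT Rb-HA and 225 (7.16) in ΔCdk Rb-HA MEFs. The parental array was the lowest, the Rb-deleted and ΔCdk Rb-HA arrays were level, and the WT Rb-HA array lay between. After background correction and normalization, Ezh2 differed from parental by a log2 ratio of 1.06 (0.11) in Rb-deleted, 0.74 (0.12) in WT Rb-HA and 1.08 (0.11) in ΔCdk Rb-HA MEFs, which corresponds to 2.08-fold, 1.67-fold and 2.12-fold. All 3 ratios share the parental array, so its error enters each of them. Of the 12616 genes, 52 had a higher ratio than Ezh2 in Rb-deleted, 76 in WT Rb-HA and 60 in ΔCdk Rb-HA MEFs. The value in WT Rb-HA MEFs lay close to the filter and came to 0.62 without background correction, which is below it.

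Among the TAT-Cre-treated arrays, Ezh2 was lower in WT Rb-HA than in Rb-deleted MEFs by a log2 ratio of -0.31 (0.08). It was higher in ΔCdk Rb-HA than in WT Rb-HA MEFs by 0.34 (0.08), and ΔCdk Rb-HA and Rb-deleted MEFs differed by 0.03 (0.08). None of these was past 1.6-fold, while the values of -0.31 and 0.34 exceeded 2 bead standard errors. The genes whose 3 ratios to parental were most like those of Ezh2, by the largest of the 3 differences and among 10835 genes detected on all arrays, were Rpa2, a subunit of the single-strand DNA binding protein RPA, with 0.04, Tyms, thymidylate synthase, with 0.06, and Dtymk, thymidylate kinase, with 0.11. These differences are about the size of the bead standard errors of the Ezh2 ratios or smaller, so the order of the nearest genes is not resolved. Rpa2 and Tyms are also on a list of G1/S genes regulated by E2F, of which 39 were detected. Against parental MEFs the list's median log2 ratio was 1.05 in Rb-deleted, 0.42 in WT Rb-HA and 0.82 in ΔCdk Rb-HA MEFs, where all genes had medians of 0.02, 0.01 and -0.01. Ezh2 thus lay level with the list's median in Rb-deleted MEFs and above it in both cultures with exogenous Rb.

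**Figure D1:**
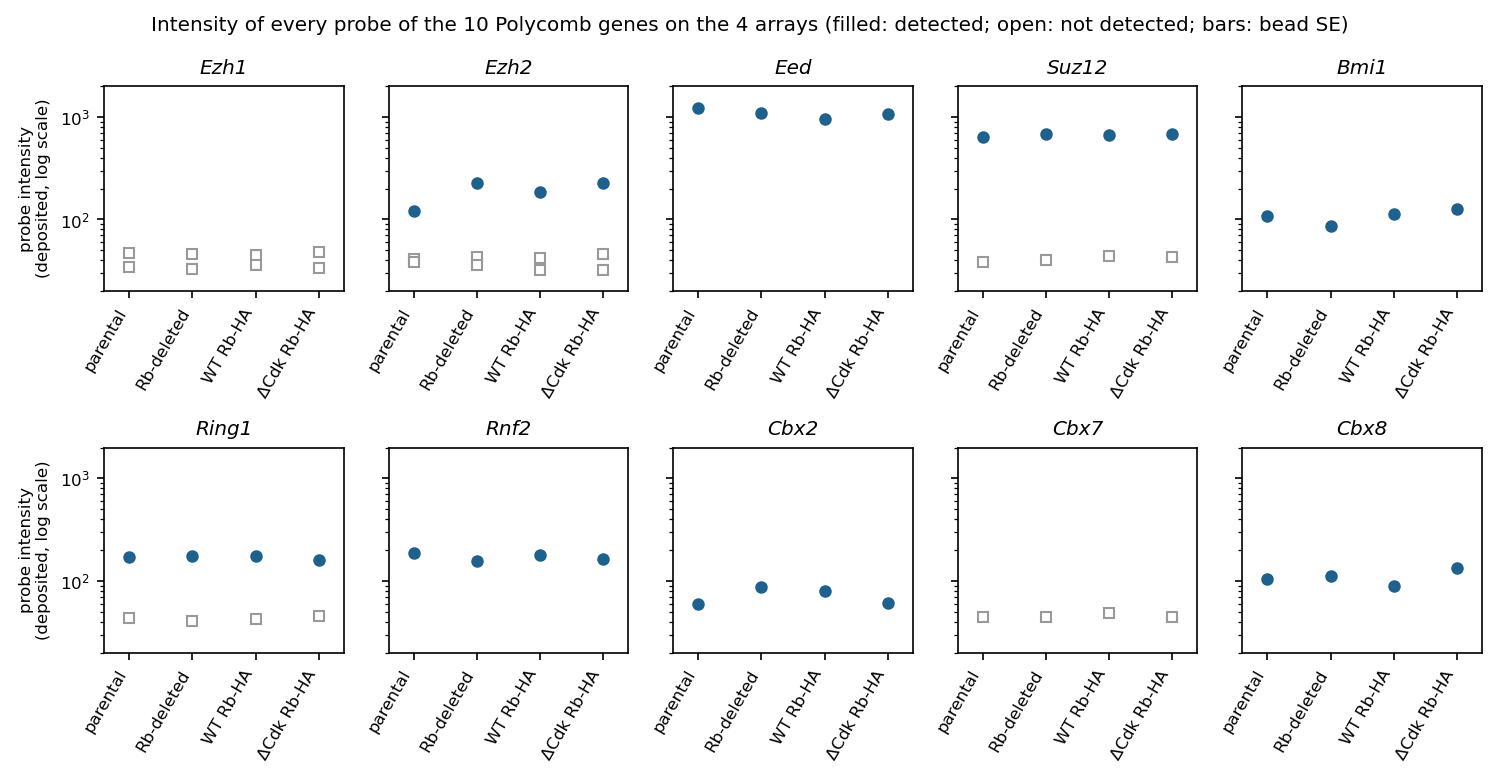
Deposited intensity of each of the 15 probes of the 10 Polycomb genes on the 4 arrays, on a log scale, with 1 panel per gene. Filled points are probes detected on at least 1 array, open squares are probes detected on none, and the bead standard errors are mostly smaller than the points. Ezh2 has 1 filled series, which lies at 122 on the parental and 225 on the Rb-deleted array, and Ezh1 and Cbx7 have open squares only.

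Promoter sequences of 9 of the 10 genes, all but Cbx2, were taken from RefSeq (build GRCm38.p6), from 250 bases before to 50 bases after the start, and were searched on both strands for the letters TTTCCCGC, TTTGGCGC, TTTCGCGC and TTTGCCGC, which match the E2F recognition motif. Each of these strings holds the letters CG, which occurred 17 to 41 times in the windows of the 9 genes. At least 1 of the strings occurred in 744 of 32851 promoters (2.26%), a share over promoters of any CG content and so not a like background. Among the 9 it occurred in those of Ezh2 and Suz12, which are shown 5′ to 3′ along the strand of the gene with the match in capitals. The first covers chr6:47594981-47595280 on the minus strand and the second chr11:79992856-79993155 on the plus strand.
Ezh2 promoter: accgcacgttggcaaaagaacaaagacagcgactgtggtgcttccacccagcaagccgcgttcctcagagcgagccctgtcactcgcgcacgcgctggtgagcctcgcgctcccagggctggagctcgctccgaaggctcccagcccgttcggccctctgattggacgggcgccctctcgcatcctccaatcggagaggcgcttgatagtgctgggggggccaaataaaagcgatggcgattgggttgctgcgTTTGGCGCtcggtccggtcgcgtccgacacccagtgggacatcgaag
Suz12 promoter: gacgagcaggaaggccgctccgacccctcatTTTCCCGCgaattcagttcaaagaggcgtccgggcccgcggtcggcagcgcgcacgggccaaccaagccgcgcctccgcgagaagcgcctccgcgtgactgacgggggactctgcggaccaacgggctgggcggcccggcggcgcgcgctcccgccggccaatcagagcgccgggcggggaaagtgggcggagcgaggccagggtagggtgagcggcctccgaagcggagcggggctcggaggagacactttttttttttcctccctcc

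The letters CCAAT, searched on both strands, occurred 3 times in the Ezh2 window, 2 times in that of Cbx8 and 1 time each in those of Eed, Suz12 and Cbx7. They did not occur in the windows of Ezh1, Bmi1, Ring1 and Rnf2, and 37.4% of all promoters held them at least 1 time. A match describes the letters of the window only. The E2F match of Ezh2 began at base 3 relative to the start and that of Suz12 at base -219. Suz12 stayed within 0.17 of parental on the log2 scale on every array, unlike Ezh2. Whether a match bears on the level of either gene was not tested.

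Ezh1, the related methyltransferase that predominates in non-dividing cells, was not detected by either of its probes. They read 47.6, 46.1, 44.9 and 48.2 at position 979, and 34.5, 32.6, 35.9 and 33.7 at position 3235, in the order used above. These lie beneath the lowest intensity of any detected probe, which was 53.8 to 58.4 by array, so no ratio is given.

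Eed, which binds the methyl mark and stimulates the enzyme, was read by 1 probe on chromosome 7. Its intensity was 1214 (49.5) in parental, 1093 (52.6) in Rb-deleted, 963 (29.7) in WT Rb-HA and 1058 (29.1) in ΔCdk Rb-HA MEFs. The parental array was the highest, where that of Ezh2 was the lowest, and the WT Rb-HA array was the lowest. The log2 ratios to parental were -0.09 (0.10), -0.27 (0.08) and -0.10 (0.08) in the same order, of which that of WT Rb-HA MEFs exceeded 2 bead standard errors.

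Suz12, the subunit that holds PRC2 together, was detected by its probe at position 3866 on chromosome 11 and not by that at 4235. The detected probe read 641 (14) in parental, 683 (20.4) in Rb-deleted, 673 (16.6) in WT Rb-HA and 679 (18.9) in ΔCdk Rb-HA MEFs. The 3 TAT-Cre-treated arrays were level and slightly above the parental array. The log2 ratios to parental were 0.14 (0.06), 0.12 (0.05) and 0.17 (0.05), and those among the TAT-Cre-treated arrays were at most 0.06 (0.06). Of the detected PRC2 core, the enzyme Ezh2 was past the filter and its partners Eed and Suz12 were not.

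**Figure D2:**
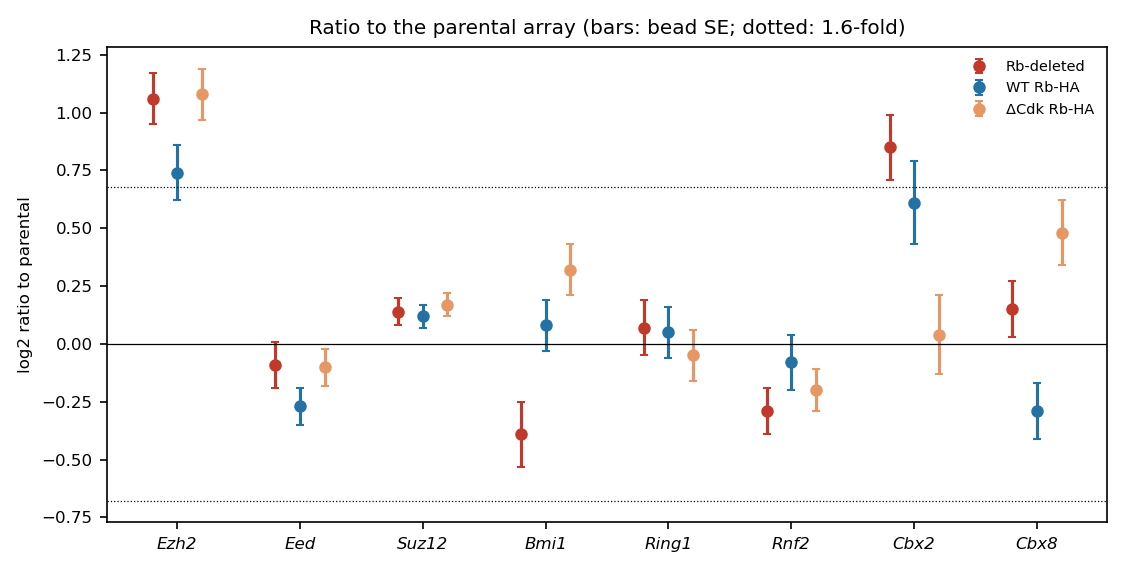
Log2 ratio to the parental array of the 8 detected Polycomb genes on each of the 3 TAT-Cre-treated arrays, with bars for the bead standard error and dotted lines at 1.6-fold. Ezh2 is past the line on all 3 arrays (1.06, 0.74 and 1.08) and Cbx2 on the Rb-deleted array (0.85).

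Bmi1, the PRC1 partner that stimulates the ubiquitin ligase, was read by 1 probe on chromosome 2. Its intensity was 108 (4.99) in parental, 86.2 (4.72) in Rb-deleted, 113 (3.7) in WT Rb-HA and 127 (4.48) in ΔCdk Rb-HA MEFs. The Rb-deleted array was the lowest and the ΔCdk Rb-HA array the highest. Against parental MEFs the log2 ratio was -0.39 (0.14) in Rb-deleted, 0.08 (0.11) in WT Rb-HA and 0.32 (0.11) in ΔCdk Rb-HA MEFs. Against Rb-deleted MEFs it was 0.47 (0.13) in WT Rb-HA and 0.71 (0.13) in ΔCdk Rb-HA MEFs, the latter 1.64-fold and past the filter by a small margin that an offset of 50 removed (0.50).

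The ubiquitin ligases of PRC1 stayed within 0.29 of parental on the log2 scale. Ring1, on chromosome 17, read 171 (8.38) in parental, 177 (9.25) in Rb-deleted, 175 (7.58) in WT Rb-HA and 161 (7.29) in ΔCdk Rb-HA MEFs at position 1568, while its probe at 1610 was not detected. Rnf2, its paralog on chromosome 1, read 189 (9.07), 156 (6.46), 178 (9.79) and 162 (5.74) in that order. The 4 arrays of Ring1 overlapped within 2 bead standard errors, and Rnf2 was highest in parental and lowest in Rb-deleted MEFs. Log2 ratios to parental were 0.07 (0.12), 0.05 (0.11) and -0.05 (0.11) for Ring1, and -0.29 (0.10), -0.08 (0.12) and -0.20 (0.09) for Rnf2.

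The Cbx genes encode the subunits that read the methyl mark. Cbx2, on chromosome 11, was the dimmest detected member and read 60.1 (2.62) in parental, 87.6 (3.83) in Rb-deleted, 80.3 (5.53) in WT Rb-HA and 60.9 (3.3) in ΔCdk Rb-HA MEFs. The parental and ΔCdk Rb-HA arrays were level and just above the lowest detected intensities of 57 and 55.5, and both other arrays were higher. Cbx2 differed from parental by a log2 ratio of 0.85 (0.14) in Rb-deleted, 0.61 (0.18) in WT Rb-HA and 0.04 (0.17) in ΔCdk Rb-HA MEFs. The log2 ratio of ΔCdk Rb-HA over Rb-deleted MEFs was -0.81 (0.16), past the filter, and that over WT Rb-HA MEFs was -0.57 (0.19). With an offset of 50 in the background correction the ratio of Rb-deleted over parental was 0.50 and that of ΔCdk Rb-HA over Rb-deleted -0.48, both within the filter. The genes most like Cbx2 over the 3 ratios to parental were Prkcdbp with a largest difference of 0.06, Etv4, an ETS transcription factor, with 0.13, and 1700085B13Rik with 0.13. These differences are smaller than the bead standard errors of the Cbx2 ratios, so the order of the nearest genes is not resolved.

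Cbx8, also on chromosome 11, read 104 (5.04) in parental, 112 (4.53) in Rb-deleted, 89.9 (3.64) in WT Rb-HA and 133 (8.02) in ΔCdk Rb-HA MEFs. The ΔCdk Rb-HA array was the highest and the WT Rb-HA array the lowest, so that the cultures with exogenous Rb stood at the ends. The log2 ratio of ΔCdk Rb-HA over WT Rb-HA MEFs was 0.77 (0.14), or 1.71-fold, and 70 genes had a higher one. Against parental MEFs the log2 ratios were 0.15 (0.12), -0.29 (0.12) and 0.48 (0.14), all within the filter. Without background correction the ratio of ΔCdk Rb-HA over WT Rb-HA MEFs was 0.60 and also within it. Cbx7 on chromosome 15 read 44.1, 44.9, 49 and 44.2 and was detected on no array.

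**Figure D3:**
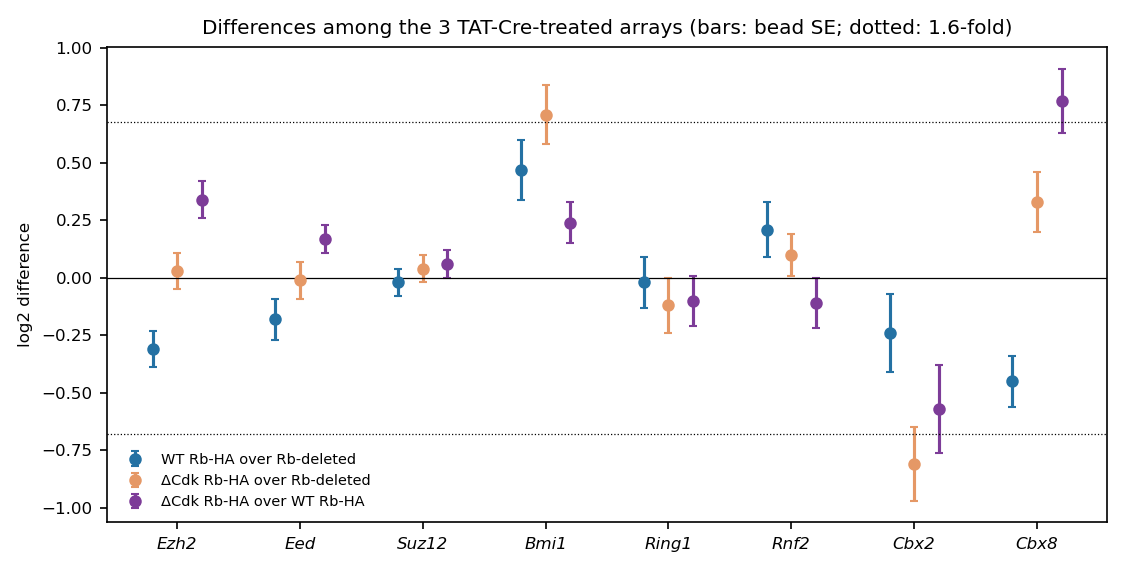
Log2 ratios of the 8 detected Polycomb genes between the TAT-Cre-treated arrays, with bars for the bead standard error and dotted lines at 1.6-fold. Bmi1 (0.71) and Cbx2 (-0.81) lie past the lines for ΔCdk Rb-HA over Rb-deleted MEFs and Cbx8 (0.77) for ΔCdk Rb-HA over WT Rb-HA MEFs.

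Counted over the 8 detected genes, 2 were higher past 1.6-fold in Rb-deleted than in parental MEFs, beside 2.14% of all genes analysed, and 0 were lower, beside 2.98%. In WT Rb-HA MEFs 1 was higher (0.888% of all genes) and 0 lower (2.46%). In ΔCdk Rb-HA MEFs 1 was higher (2.58%) and 0 lower (3.30%). The higher gene was Ezh2 each time, joined by Cbx2 in Rb-deleted MEFs. The medians over the 8 genes were 0.10, 0.06 and 0.11, beside 0.02, 0.01 and -0.01 over all genes. In each of the 3 comparisons 5 of 8 members were above 0 (62.5%) and 3 below. Of all genes, 52.3%, 51.3% and 48.9% were above 0.

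Between WT Rb-HA and Rb-deleted MEFs no member passed the filter, beside 0.539% of all genes higher and 0.484% lower. Between ΔCdk Rb-HA and Rb-deleted MEFs Bmi1 was higher (2.31% of all genes) and Cbx2 lower (1.95%). For ΔCdk Rb-HA over WT Rb-HA, Cbx8 was higher (0.840%) and 0 members were lower (1.01%). The medians over the 8 genes in these comparisons were -0.10, 0.03 and 0.11, beside -0.02, -0.03 and -0.01 over all genes.

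Differences of more than 2 bead standard errors were common over the whole array. Against parental MEFs, 3 members were higher by this measure in Rb-deleted MEFs (26.6% of all genes) and 2 lower (24.6%), 3 higher in WT Rb-HA (23.6%) and 2 lower (23.2%), and 4 higher in ΔCdk Rb-HA (26.1%) and 1 lower (27.2%). For WT Rb-HA over Rb-deleted, 1 member was higher (15.0%) and 3 lower (18.8%). For ΔCdk Rb-HA over Rb-deleted, 2 were higher (21.2%) and 1 lower (27.1%), and over WT Rb-HA 4 were higher (17.6%) and 1 lower (18.9%). With 8 genes a single one is a large share, so these counts are a description only.

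**Figure D4:**
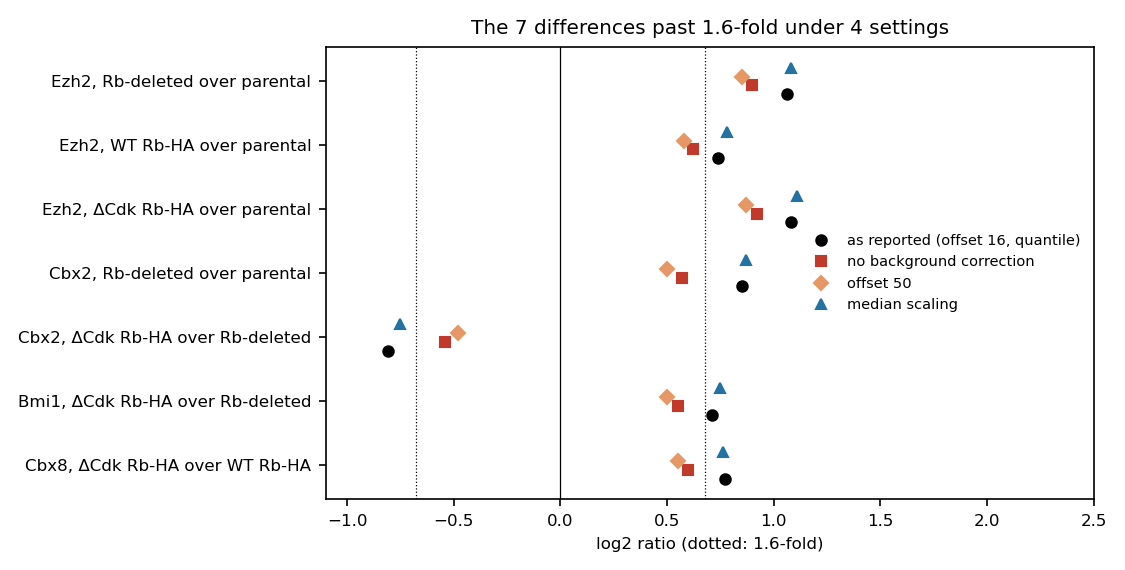
The 7 log2 ratios past 1.6-fold under 4 settings, as reported (offset 16 with quantile normalization), without background correction, with an offset of 50 and with median scaling, with dotted lines at 1.6-fold. Ezh2 in Rb-deleted and ΔCdk Rb-HA MEFs stays past the line under all 4, and the other 5 fall within it without background correction and with an offset of 50.

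Other genes of the Polycomb system were read from a list of 27, of which 20 were detected. They include the histone binding proteins Rbbp4 and Rbbp7 of PRC2, other Pcgf and Phc subunits of PRC1, and Kdm2b, Bcor and E2f6 of the variant complexes. In Rb-deleted and in WT Rb-HA MEFs 0 of 20 passed 1.6-fold against parental, and in ΔCdk Rb-HA MEFs 1 did, Rbbp7. Of all genes, 2.14% were higher and 2.98% lower past it in Rb-deleted MEFs. The shares were 0.888% and 2.46% in WT Rb-HA and 2.58% and 3.30% in ΔCdk Rb-HA MEFs. Counts of 0 or 1 in 20 genes lie near these shares. Rbbp7 read 613 in parental, 831 in Rb-deleted, 885 in WT Rb-HA and 979 in ΔCdk Rb-HA MEFs. It was lowest in parental MEFs and highest in ΔCdk Rb-HA MEFs. Its log2 ratios to parental were 0.49 (0.06), 0.59 (0.06) and 0.78 (0.06). The medians over the 20 genes were 0.14, 0.07 and -0.01, beside 0.02, 0.01 and -0.01 over all genes. Above 0 were 14 of 20 in Rb-deleted MEFs (70.0%, beside 52.3% of all genes), 14 in WT Rb-HA (70.0%, beside 51.3%) and 9 in ΔCdk Rb-HA (45.0%, beside 48.9%). For ΔCdk Rb-HA over Rb-deleted, 5 of 20 were above 0 (25.0%, beside 45.4%), with a median of -0.12 and none past the filter. The other comparisons among TAT-Cre-treated arrays lay nearer the share of all genes. They had 9 of 20 above 0 for WT Rb-HA over Rb-deleted (45.0%, beside 46.1%) and 8 for ΔCdk Rb-HA over WT Rb-HA (40.0%, beside 48.5%).

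Genes that Polycomb silences were read next. Cdkn2a has 3 probes on chromosome 4, of which the one at position 147 lies in the first exon of p16Ink4a and the one at 161 in that of p19Arf, so they tell apart the pair of proteins that the locus encodes. Both sequences are shown for this reason.
Cdkn2a probe 147, p16Ink4a: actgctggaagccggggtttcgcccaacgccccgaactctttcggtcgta
Cdkn2a probe 161, p19Arf: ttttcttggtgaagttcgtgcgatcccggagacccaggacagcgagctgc

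The p16Ink4a probe read 288 (8.31) in parental, 291 (6.54) in Rb-deleted, 377 (12.6) in WT Rb-HA and 453 (12.7) in ΔCdk Rb-HA MEFs. The first pair was level and both cultures with exogenous Rb were higher. The log2 ratios to parental were 0.06 (0.06), 0.47 (0.07) and 0.79 (0.06). The p19Arf probe read 257 (11.2), 406 (16), 405 (19) and 394 (16.2), low on the parental array and level on the other 3, with log2 ratios to parental of 0.75 (0.09), 0.76 (0.09) and 0.76 (0.09). The probes of 1 locus thus differed in which arrays stood apart. The third probe, at position 699 of the transcript listed for p19Arf, read 854, 923, 959 and 1244. Cdkn2b, which encodes p15Ink4b beside Cdkn2a, read 1953, 1849, 1931 and 2128, with log2 ratios of -0.02 (0.06), 0.06 (0.06) and 0.21 (0.05).

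Hox genes, the classical targets that give cells their position along the body, were detected for 18 of 39 on the array. Over parental, the median of their log2 ratios was 0.22 in Rb-deleted, 0.23 in WT Rb-HA and 0.47 in ΔCdk Rb-HA MEFs. With an offset of 50 these medians were 0.15, 0.15 and 0.31. All 18 were above 0 in the last culture under both offsets, where 48.9% of all genes were with the offset of 16. The counts above 0 were 13 in Rb-deleted (72.2%, beside 52.3% of all genes) and 15 in WT Rb-HA MEFs (83.3%, beside 51.3%). Hoxc13 with 0.01 (0.21), Hoxd8 with 0.05 (0.07) and Hoxd9 with 0.05 (0.14) lay within their bead standard error in the last culture. So did Hoxa11 with 0.11 (0.17) and Hoxa13 with 0.13 (0.14). Of these, all but Hoxd8 read 65.6 to 78.4 on the parental array, where the lowest detected intensity was 57. Higher past 1.6-fold against parental were Hoxa5 (0.71) and Hoxb5 (0.81) in ΔCdk Rb-HA MEFs, beside 2.58% of all genes. Neither passed it without background correction. Hoxa5 read 108, 141, 138 and 157, and Hoxb5 read 76.3, 87.7, 96.2 and 114, in both cases lowest in parental and highest in ΔCdk Rb-HA MEFs. Hoxa11 was the 1 gene lower past the filter in Rb-deleted MEFs, beside 2.98% of all genes. It was below detection there (49.6, against 69.5 in parental), so its ratio is only a bound.

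**Figure D5:**
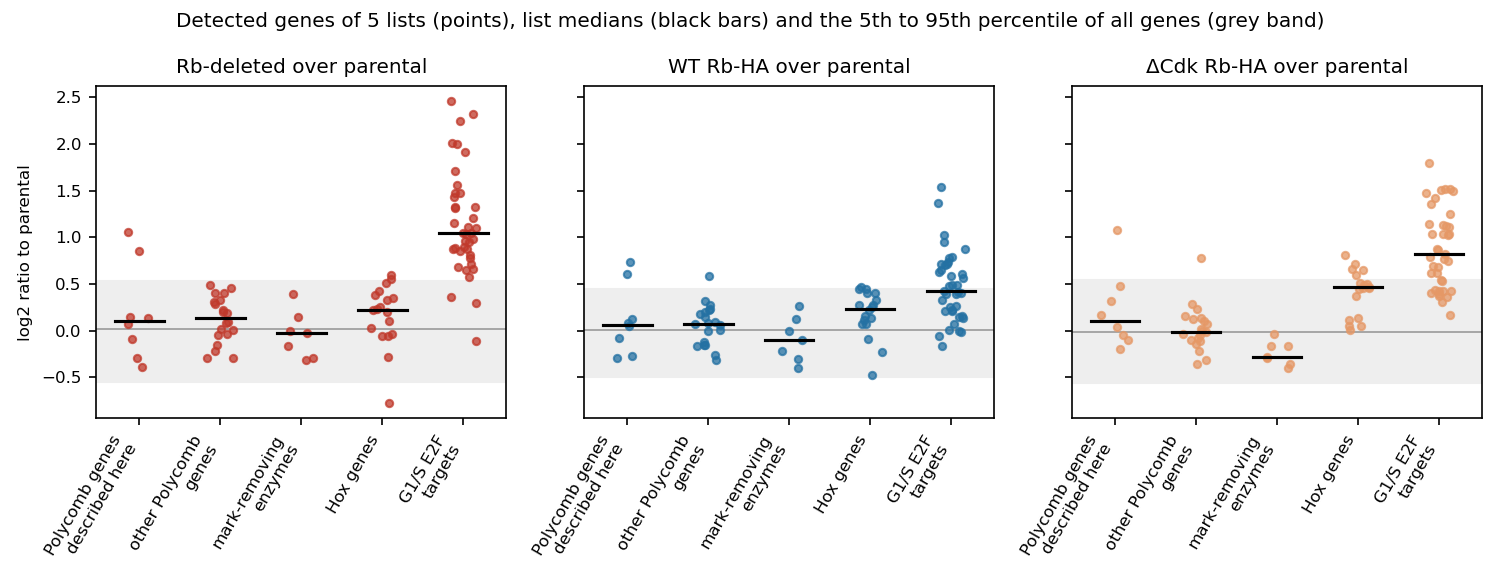
Log2 ratio to the parental array of the detected genes of 5 lists, with 1 panel per TAT-Cre-treated array, points for genes, black bars for medians and a grey band from the 5th to the 95th percentile of all genes. The medians of the other Polycomb genes lie near 0 (0.14, 0.07 and -0.01), those of the Hox genes are 0.22, 0.23 and 0.47, those of the enzymes that remove Polycomb marks -0.03, -0.10 and -0.28, and those of the G1/S genes 1.05, 0.42 and 0.82.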

How the data were processed

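RNA from 4 MEF cultures was hybridised to Illumina mouse whole-genome arrays, 1 per condition, grouped by sample title. The authors deposited 1 linear intensity per probe and array, averaged over beads and not normalized, with the bead standard error and a detection p-value. The software behind these values is not given in the sources used here. Genome positions in the table name no build, so chromosomes and transcript positions are given.

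Intensities were corrected by normexp in limma 3.58.1 (R 4.3.3), which took the background from the detection p-values and added an offset of 16. Quantile normalization of the 4 arrays and a log2 transform followed. The offset pulls ratios of dim probes toward 0. A gene entered if any array had a probe with detection p below 0.01, and its brightest probe was used. Bead standard errors were carried through each array's mapping, and those of both arrays were added in quadrature for a ratio. Python 3.11.15 with numpy 2.4.6 and pandas 2.3.3 did the rest, and the calculation was tested on simulated data. With 1 array per condition no test was run, and the number of arrays limits the precision.

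Members and lists were chosen with earlier results of these data known. Named genes were all members, Rb1, the 3 genes most like each member past 1.6-fold against parental, other Polycomb genes past 1.6-fold, Cdkn2a and Cdkn2b. Hox genes and histone mark erasers were named after their values were seen. Alternatives dropped the background correction, raised its offset to 50, used median scaling, loosened or tightened the detection filter, averaged probes, moved the threshold to 1.5-fold or 2-fold, or also asked for 2 bead standard errors.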

Additional observations from a re-analysis of the deposited data

How the results depend on the processing

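No paired analysis was possible because each condition has 1 array and the labels give no replicate numbers. Counts of members past the threshold were 2 for Rb-deleted over parental, 1 for WT Rb-HA over parental, 2 for ΔCdk Rb-HA over Rb-deleted and 1 for ΔCdk Rb-HA over WT Rb-HA MEFs. Without background correction, with an offset of 50 and at 2-fold they became 1, 0, 0 and 0 in each case, and at 1.5-fold the second became 2 by the addition of Cbx2. The counts for ΔCdk Rb-HA over parental (1) and WT Rb-HA over Rb-deleted MEFs (0) held under every alternative run, and all 6 medians kept their sign. Of 48 member ratios, none changed sign without background correction, with an offset of 50 or with median scaling. Over these settings Ezh2 ranged from 0.85 to 1.08 in Rb-deleted, from 0.58 to 0.78 in WT Rb-HA and from 0.87 to 1.11 in ΔCdk Rb-HA MEFs. Cbx2 ranged from 0.50 to 0.87 in Rb-deleted over parental and from -0.81 to -0.48 in ΔCdk Rb-HA over Rb-deleted MEFs, where Bmi1 ranged from 0.50 to 0.75, and Cbx8 from 0.55 to 0.77 in ΔCdk Rb-HA over WT Rb-HA. Cbx2, Cbx8 and Bmi1 read 60.1 to 133 over a background of 35.9 to 36.9, which limits their ratios, and bead errors leave out the spread between cultures.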

Other observations

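Enzymes that remove the Polycomb marks were detected for 7 of 7 listed genes, the H3K27 demethylases Utx and Jmjd3 and the H2A deubiquitinases Bap1, Usp16 and Mysm1 with the Bap1 partners Asxl1 and Asxl2. None passed 1.6-fold in any of the 6 comparisons, beside 0.484% to 3.30% of all genes, depending on comparison and direction. With shares this small, a count of 0 of 7 is a description only. In ΔCdk Rb-HA MEFs 0 of 7 were above 0 against parental, beside 48.9% of all genes, and 0 of 7 were under each of the other 3 normalization settings. The median log2 ratio there was -0.28, and -0.23 with an offset of 50, while the medians were -0.03 in Rb-deleted and -0.10 in WT Rb-HA MEFs. Utx read 497 in parental, 436 in Rb-deleted, 451 in WT Rb-HA and 361 in ΔCdk Rb-HA MEFs, and Jmjd3 read 505, 481, 578 and 375. Both were lowest in ΔCdk Rb-HA MEFs, with log2 ratios to parental of -0.40 (bead standard error 0.06) and -0.36 (0.14). Usp16 with -0.04 (0.06) and Asxl2 with -0.16 (0.17) lay within their error, and their ratios of ΔCdk Rb-HA over Rb-deleted were above 0, at 0.25 (0.05) and 0.17 (0.18). Bap1, Asxl1 and Mysm1 had log2 ratios to parental of -0.29 (0.09), -0.28 (0.08) and -0.17 (0.11). Phc1, a PRC1 subunit chosen after its values were seen, read 435, 551, 480.0 and 372, and its log2 ratio of ΔCdk Rb-HA over Rb-deleted MEFs was -0.54 (0.09).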
